A study of Mus musculus with 19 samples.

Results

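Nucleoside salvage and adenosine genes were followed through bone marrow of mice lacking the kinases CDK8 and CDK19, singly or together. The 10 genes were Upp1, Cda, Uck1, Uck2, Pnp, Ada, Entpd1, Nt5e, Adora2a and Adora2b, all found by symbol among the 34432 genes of the deposited table. Upp1 and Nt5e were chosen by their log2 fold change in marrow lacking both kinases against the Cre control, so their values in every comparison with either of those groups are a description without a test. The other 8 were listed as their neighbours in the pathway.

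CDK8 and CDK19 are paralogous cyclin-dependent kinases, either of which can sit in the kinase module of Mediator, the complex between transcription factors and RNA polymerase II. Polyadenylated RNA was sequenced from whole marrow of C57/BL6 mice aged 8 weeks, taken from femurs and tibiae without treatment. DKO marrow (n = 4) carried floxed Cdk8 alleles with the Vav-iCre transgene on a Cdk19 null background. CDK8KO marrow (n = 4) carried the floxed Cdk8 alleles and Vav-iCre, and CDK19KO marrow (n = 4) was Cdk19 null. VAV marrow (n = 4) carried Vav-iCre alone, and WT marrow (n = 3) was wild type. Vav-iCre drives Cre recombinase in blood cells, so marrow cells of other lineages would keep Cdk8 in CDK8KO and DKO mice.

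Nucleosides are taken apart and reused inside cells, while a separate chain at the cell surface turns extracellular ATP into adenosine. Uridine is split to uracil and ribose-1-phosphate by uridine phosphorylase, or phosphorylated back to UMP by uridine-cytidine kinases, and cytidine deaminase turns cytidine into uridine. At the surface CD39 (Entpd1) removes phosphates from ATP and ADP to leave AMP, and CD73 (Nt5e) removes the last phosphate to give adenosine. Adenosine signals through its receptors on immune and other cells until adenosine deaminase turns it into inosine, which purine nucleoside phosphorylase splits further.

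The promoter windows of Upp1 and Nt5e are shown because these were the 2 of the 10 genes whose levels set DKO marrow apart from every other genotype. Each is a RefSeq window of 300 bases on GRCm38.p6 that lies mostly upstream of an annotated start, written 5′ to 3′, with the motifs found in capitals. The Upp1 window (chr11:9117853-9118152, plus strand) holds the start of the gene as GENCODE vM21 gives it, and the Nt5e window (chr9:88327359-88327658, plus strand) surrounds a start that RefSeq places downstream of the GENCODE one.

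Upp1: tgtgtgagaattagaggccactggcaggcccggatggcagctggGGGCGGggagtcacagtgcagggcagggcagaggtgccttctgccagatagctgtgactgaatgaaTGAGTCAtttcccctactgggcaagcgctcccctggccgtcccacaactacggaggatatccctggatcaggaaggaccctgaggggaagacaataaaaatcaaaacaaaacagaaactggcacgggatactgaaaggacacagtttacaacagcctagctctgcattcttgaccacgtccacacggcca

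Nt5e: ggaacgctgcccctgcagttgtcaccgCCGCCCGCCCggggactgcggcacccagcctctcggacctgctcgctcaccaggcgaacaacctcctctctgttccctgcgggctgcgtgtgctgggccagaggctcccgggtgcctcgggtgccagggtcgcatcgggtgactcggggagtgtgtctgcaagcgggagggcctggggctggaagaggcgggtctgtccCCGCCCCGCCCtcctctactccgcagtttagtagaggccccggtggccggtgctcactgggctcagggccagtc

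The motifs searched, on both strands with overlaps counted, were AP-1 (TGAGTCA), the GC box (GGGCGG), the TATA box (TATAAA) and the cyclic AMP response element (TGACGTCA). The Upp1 window held 1 AP-1 motif and 1 GC box, and the Nt5e window held 4 GC boxes, written there as CCGCCC on the printed strand in a pair of overlapping runs. Neither window held the other motifs searched, and the Nt5e window held no AP-1 motif. Among 32851 RefSeq windows of the same length, 5.20% held the AP-1 motif, 35.7% the GC box, 13.6% the TATA box and 1.79% the cyclic AMP response element. CG dinucleotides numbered 8 in the Upp1 window and 23 in the Nt5e window, against a median of 7 over all windows. RefSeq windows were matched for 9 of the 10 genes, and the AP-1 motif was found in 2 of the 3 Upp1 windows, which overlap and share it, and in no window of the other genes. These matches describe letters and not binding.

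Libraries held 14881701 to 33010241 reads assigned to genes. Nothing in the labels says that every library is a separate mouse, so p-values measure the spread between libraries, which may be technical. Cdk19, the deleted gene, averaged 1173 ± 43.1 normalized counts in DKO and 1091 ± 62.5 in CDK19KO, against 3200.5 ± 411 in CDK8KO, 3668 ± 525 in VAV and 3157 ± 99.7 in WT (SD, n = 4, 3 in WT). In DKO against VAV it fell by 1.63 on the log2 scale (adjusted p = 5.5e-08, limma). Cdk8 averaged 798 ± 62.0 normalized counts in DKO and 1013 ± 249 in CDK8KO, against 994 ± 230.1 in VAV and 1241 ± 34.5 in WT (SD), and did not pass the test in DKO or CDK8KO against VAV (adjusted p = 0.408 and 0.976, limma). The count over the whole gene does not show whether floxed exons were removed, so it does not check the Cdk8 label. Skeletal muscle transcripts were high in CDK19KO replicate 4 and DKO replicate 4, and erythroid transcripts in CDK8KO replicate 1 and VAV replicate 3. In every library all 11 neutrophil and all 11 erythroid marker genes of bone marrow had reads.

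Upp1, uridine phosphorylase 1, stood at chromosome 11 (9118103 to 9136170, plus strand, GRCm38/mm10) and was high in DKO marrow alone. Its normalized counts, which are reads divided by the library's size factor, were 530.4, 564.4, 492.7 and 397.2 in the DKO libraries. They were 68.5, 239.6, 58.0 and 125.8 in CDK8KO, 89.0, 33.1, 72.1 and 50.5 in CDK19KO, 99.0, 67.8, 54.0 and 89.8 in VAV, and 64.4, 53.2 and 28.1 in WT. Every DKO library lay above every library of the other genotypes, and the nearest was CDK8KO replicate 2. Behind these levels stood 265 to 652 reads per DKO library and 22 to 192 reads in the other libraries.

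Upp1 averaged 496 ± 72.2 normalized counts in DKO, which was 639% of the VAV mean of 77.7 ± 20.5 (SD, n = 4 each). On the log2(normalized count + 1) scale of the fit, DKO differed from VAV by 2.69 ± 0.39 (SE), as a description. DKO also stood 2.22 above CDK8KO, 3.08 above CDK19KO and 3.39 above WT on that scale. These comparisons share the DKO libraries and are not independent of each other. CDK8KO differed from VAV by 0.47 ± 0.39 (SE), and VAV from WT by 0.71 ± 0.42 (SE), with overlapping libraries in both comparisons.

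The order of the Upp1 means was DKO, CDK8KO, VAV, CDK19KO and WT, and after DKO each neighbour in that order overlapped the next. CDK8KO was the most variable genotype, with a mean of 123 ± 83.3 normalized counts (SD, n = 4). The change that DKO showed against CDK8KO exceeded the change that CDK19KO showed against WT by 1.91 ± 0.57 (SE) on the log2 scale, again as a description. This contrast is called the interaction below. DKO and CDK8KO carried Vav-iCre while CDK19KO and WT did not, so Cdk8 deletion and the transgene cannot be told apart in it. The same holds for DKO or CDK8KO against CDK19KO or WT.

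Comparisons without DKO or VAV libraries could be tested for Upp1, and likewise for Nt5e. The fit takes its spread from all 19 libraries, those of DKO and VAV among them, so these tests are not fully free of the libraries behind the choice. CDK19KO averaged 61.2 ± 24.5 and WT 48.6 ± 18.6 normalized counts (SD), a log2 difference of 0.31 ± 0.42 (SE, 95% interval -0.57 to 1.20) that did not pass (adjusted p = 1, limma). CDK8KO against WT gave 1.17 ± 0.42 (SE), which had an unadjusted p of 0.0119 and an adjusted p of 0.534 in limma and did not pass. The libraries of CDK8KO and WT overlapped, since CDK8KO replicate 3 at 58.0 lay below WT replicate 1 at 64.4 normalized counts.

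**Figure D1:**
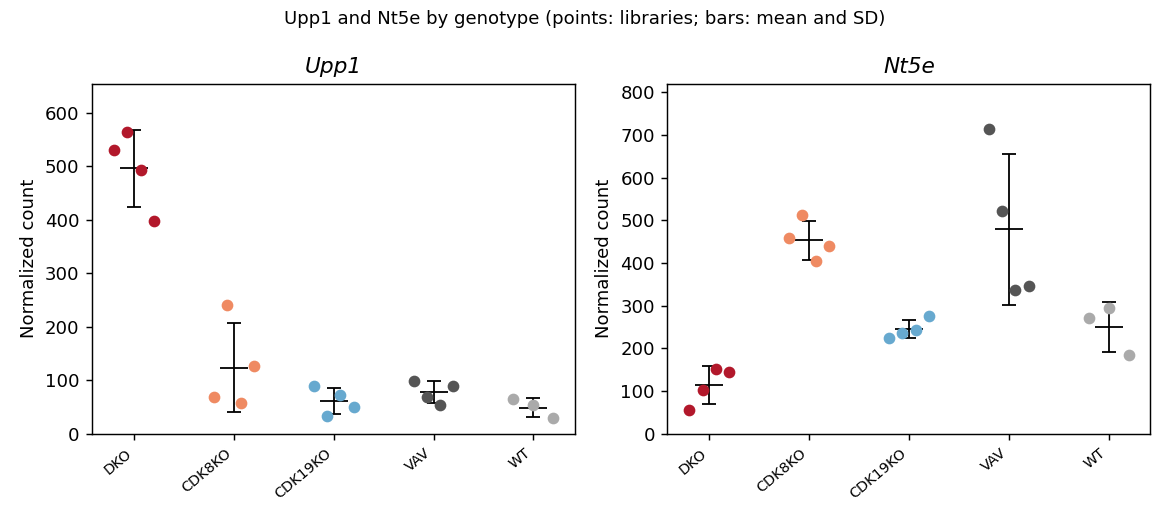
Normalized counts of Upp1 (left) and Nt5e (right) on linear axes from 0 in the 5 genotypes, with 1 point per library and bars for the mean and SD (n = 4, 3 in WT). DKO libraries hold the highest Upp1 values, at 397.2 to 564.4, and the lowest Nt5e values, at 53.9 to 150.5.

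Nt5e encodes CD73, the surface enzyme that makes adenosine from AMP, and lies on chromosome 9 (88327197 to 88372092, plus strand, GRCm38/mm10). Its level was lowest in DKO marrow, with normalized counts of 53.9, 102.1, 150.5 and 143.9. They were 457.6, 511.7, 403.8 and 438.5 in CDK8KO, 224.4, 236.2, 241.6 and 274.3 in CDK19KO, 712.6, 520.7, 337.3 and 344.9 in VAV, and 270.6, 293.8 and 184.1 in WT. No DKO library overlapped a library of another genotype, and no CDK8KO or VAV library overlapped a CDK19KO or WT library. By these ranges the genotypes lay at 3 levels, with VAV and CDK8KO at the top, WT and CDK19KO between, and DKO below, as a description. Of all tested genes 12.4% had no overlap in VAV against WT, 5.74% in CDK8KO against WT and 15% in DKO against CDK19KO. The shares for VAV and CDK8KO against CDK19KO were not computed.

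Nt5e averaged 113 ± 44.6 normalized counts in DKO, or 23.5% of the VAV mean of 479 ± 177 (SD, n = 4 each). The DKO level was 24.9% of that in CDK8KO, 46.1% of that in CDK19KO and 45.1% of that in WT. On the log2 scale DKO differed by -2.11 ± 0.28 from VAV, -2.10 ± 0.28 from CDK8KO, -1.21 ± 0.28 from CDK19KO and -1.22 ± 0.30 from WT (SE). The size of the difference therefore depended on the genotype taken as the comparator, since VAV itself stood 0.90 ± 0.30 (SE) above WT. CDK8KO and VAV differed by -0.01 ± 0.28 (SE).

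The Nt5e difference of DKO from CDK8KO lay -2.09 ± 0.41 (SE) on the log2 scale from that of CDK19KO from WT, given as a description. In the comparisons open to a test, CDK19KO averaged 244 ± 21.4 and WT 249.5 ± 57.8 normalized counts (SD), a log2 difference of -0.01 ± 0.30 (SE, 95% interval -0.64 to 0.62, adjusted p = 1, limma). CDK8KO differed from WT by 0.88 ± 0.30 (SE) with no overlap of libraries, an unadjusted p of 0.00872 and an adjusted p of 0.506 in limma, and did not pass. Of all 13976 genes tested, 5.74% had no overlap between CDK8KO and WT libraries and 0.0859% passed the test there.

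Because Upp1 and Nt5e were picked from DKO against VAV, nothing is read from their place among all genes there. In DKO against VAV 1.52% of the tested genes passed at an adjusted p under 0.05, 0.83% higher and 0.694% lower, and 8.49% had no overlap between libraries. The corresponding share without overlap was 7.43% in DKO against CDK8KO, 15% in DKO against CDK19KO and 18.7% in DKO against WT.

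Set against each other within a library, Upp1 and Nt5e changed places. The ratio of Upp1 to Nt5e normalized counts ran from 2.76 to 9.83 in the DKO libraries and from 0.130 to 0.468 in the other 15 libraries. This ratio needs no scaling between libraries but sets a gene with long merged exons, Nt5e, against a shorter one. Levels were therefore also taken per kb of merged exon, the union of all annotated exons of a gene. That length need not be the length of the transcripts present, so comparisons between genes are approximate. Upp1 per kb averaged 253 ± 36.8 normalized counts in DKO, against 39.6 ± 10.4 in VAV and 24.8 ± 9.47 in WT (SD). Nt5e per kb averaged 13.1 ± 5.18 in DKO, against 55.7 ± 20.6 in VAV and 29.0 ± 6.72 in WT (SD). Among the 10 genes Upp1 was the third highest per kb in DKO, and the sixth to eighth in the other genotypes, while Nt5e was the ninth in DKO and in CDK19KO, the sixth in VAV and the seventh in CDK8KO and WT.

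**Figure D2:**
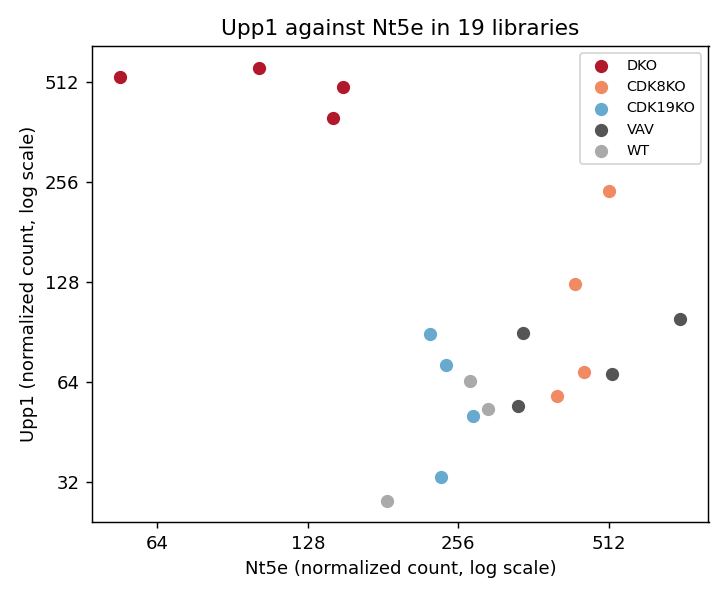
Upp1 (vertical) against Nt5e (horizontal) normalized counts, both on log axes, with 1 point per library for all 19 libraries coloured by genotype. The 4 DKO libraries sit alone at the upper left, with ratios of Upp1 to Nt5e of at least 2.76, while the other libraries have ratios of 0.468 or less. Both genes were chosen by their change in DKO against VAV, so the gap between these genotypes follows from the choice.

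The other surface and signalling genes among the 10, Entpd1, Adora2a and Adora2b, did not pass the test in any comparison. Entpd1 (CD39, chromosome 19, 40612366 to 40741602), the enzyme directly before CD73, had 1750.4 to 2551 normalized counts in DKO, 1381 to 2301 in CDK8KO, 1639 to 2417 in CDK19KO, 1658 to 2520.3 in VAV and 1671 to 2211 in WT. All genotypes overlapped, and DKO differed from VAV by 0.09 (95% interval -0.27 to 0.44) on the log2 scale. Adora2a and Adora2b encode adenosine receptors that raise cyclic AMP.

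Adora2a (chromosome 10, 75316877 to 75334784) averaged 67.2 ± 15.1 normalized counts in DKO, 54.8 ± 26.1 in CDK8KO, 89.4 ± 26.0 in CDK19KO, 62.3 ± 39.7 in VAV and 52.9 ± 4.01 in WT (SD). Adora2b (chromosome 11, 62248984 to 62266453) averaged 87.9 ± 29.6 normalized counts in DKO, 80.3 ± 31.5 in CDK8KO, 72.9 ± 26.0 in CDK19KO, 83.6 ± 20.7 in VAV and 74.9 ± 17.0 in WT (SD). Their log2 differences of DKO from VAV were 0.25 (95% interval -0.56 to 1.06) for Adora2a and 0.05 (-0.65 to 0.74) for Adora2b. Without VAV replicate 3, which stood above the other VAV libraries, the Adora2a difference was 0.62 and also did not pass. The widest difference among these genes was Adora2a in CDK19KO against WT, 0.70 ± 0.42 (SE), which did not pass (adjusted p = 1, limma).

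Ada, adenosine deaminase (chromosome 2, 163726584 to 163750239), averaged 288 ± 75.8 normalized counts in DKO, 237 ± 75.5 in CDK8KO, 192 ± 22.5 in CDK19KO, 250.1 ± 63.6 in VAV and 234 ± 33.9 in WT (SD). DKO replicate 4 had the lowest DKO value, 186, below all 4 VAV libraries. Ada in DKO against CDK19KO had the smallest p of the other 8 genes, with a log2 difference of 0.55 ± 0.24 (SE), an unadjusted p of 0.0336 and an adjusted p of 0.277 in limma. The adjusted p ran from 0.139 to 0.518 over the alternative settings, and the libraries of DKO and CDK19KO overlapped.

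Pnp, purine nucleoside phosphorylase (chromosome 14, 50931082 to 50965237), was the highest of the 10 genes per kb in every genotype. It had 1551 to 2122 normalized counts in DKO, 1751 to 2429 in CDK8KO, 1955 to 2207 in CDK19KO, 1705 to 1838 in VAV and 1916 to 2177 in WT. VAV and WT did not overlap for Pnp, the only such case among the other 8 genes in that comparison, where 12.4% of all tested genes had no overlap. VAV also lay below CDK19KO without overlap, a comparison for which the share of all tested genes was not computed. The log2 difference of VAV from WT was -0.24 ± 0.13 (SE) and did not pass (adjusted p = 0.389, limma).

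Pnp is uncertain because it shares 718 exon bases, 18.0% of its merged exons, with Gm49342 on the same strand. Gm49342 had from 0 normalized counts in CDK8KO replicate 3 to 675 in CDK8KO replicate 4. Pnp plus Gm49342 averaged 2097 ± 318 normalized counts in DKO, 2355 ± 417 in CDK8KO, 2394 ± 38.5 in CDK19KO, 2069 ± 230.2 in VAV and 2294 ± 148 in WT (SD). The VAV and WT libraries overlapped for this sum. The near-identical gene Pnp2 averaged 98.1 ± 39.2 normalized counts in DKO and 119 ± 30.5 in VAV (SD). It averaged 185 ± 85.1 in CDK8KO, 207 ± 34.3 in CDK19KO and 189 ± 7.85 in WT (SD). In DKO against CDK19KO Pnp2 differed by -1.14 ± 0.32 (SE) on the log2 scale. The adjusted p there was 0.0789 in limma, 0.0998 in edgeR and 0.0295 in DESeq2.

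The kinases that return uridine and cytidine to the nucleotide pool did not pass in any comparison. Uck1 (chromosome 2, 32255002 to 32260159) averaged 248 ± 33.4 normalized counts in DKO and 237 ± 42.5 in VAV (SD), a log2 difference of 0.07 (95% interval -0.31 to 0.45). Uck2 (chromosome 1, 167222883 to 167285320) averaged 1249.9 ± 373 in DKO and 1532 ± 401 in VAV (SD), a log2 difference of -0.31 (-0.82 to 0.21). Both kinases overlapped between every pair of genotypes compared.

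Cda, cytidine deaminase (chromosome 4, 138338424 to 138367992), was at the limit of detection. It had 0 to 9 reads per library and 0 to 7.47 normalized counts in DKO, 0 to 5.43 in CDK8KO, 0 to 4.68 in CDK19KO, 0 to 3.49 in VAV and 1.28 to 3.44 in WT. A count of 0 allows a level of up to 2.19 to 4.50 normalized counts at these depths, from counting error only, so no difference was detectable. Cda fell below the filter, which asked for an average of 10 or more normalized counts, and entered no test.

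Of the other 8 genes, 7 were tested and 0 passed in DKO against VAV by limma, with 0 at an unadjusted p under 0.05 and 0 by edgeR or DESeq2. The background there was 1.52% of tested genes. The log2 differences of the 7 ran from -0.31 to 0.25, with a median of 0.07 against -0.01 over all tested genes. The count was also 0 of 7 by limma, by edgeR and by DESeq2 in each other comparison, with 0 at an unadjusted p under 0.05 except Ada above. No overlap between libraries was seen for 0 of the 8 in CDK8KO against VAV and 0 in CDK19KO against WT, where 1.76% and 7.61% of all tested genes had none, and for 1, Pnp, in VAV against WT. The share of all tested genes that passed by limma was 0% in CDK8KO against VAV, 0.0215% in CDK19KO against WT, 1.7% in DKO against CDK8KO, 2% in DKO against CDK19KO, 0.093% in VAV against WT, 2.1% in DKO against WT and 0.15% for the interaction. In CDK8KO against VAV this was 0 genes by limma and by edgeR and 1 by DESeq2, with 1161 genes at an unadjusted p under 0.05 in limma. Standard errors were widest for Adora2a, at 0.39 in DKO against VAV and 0.57 for the interaction.

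**Figure D3:**
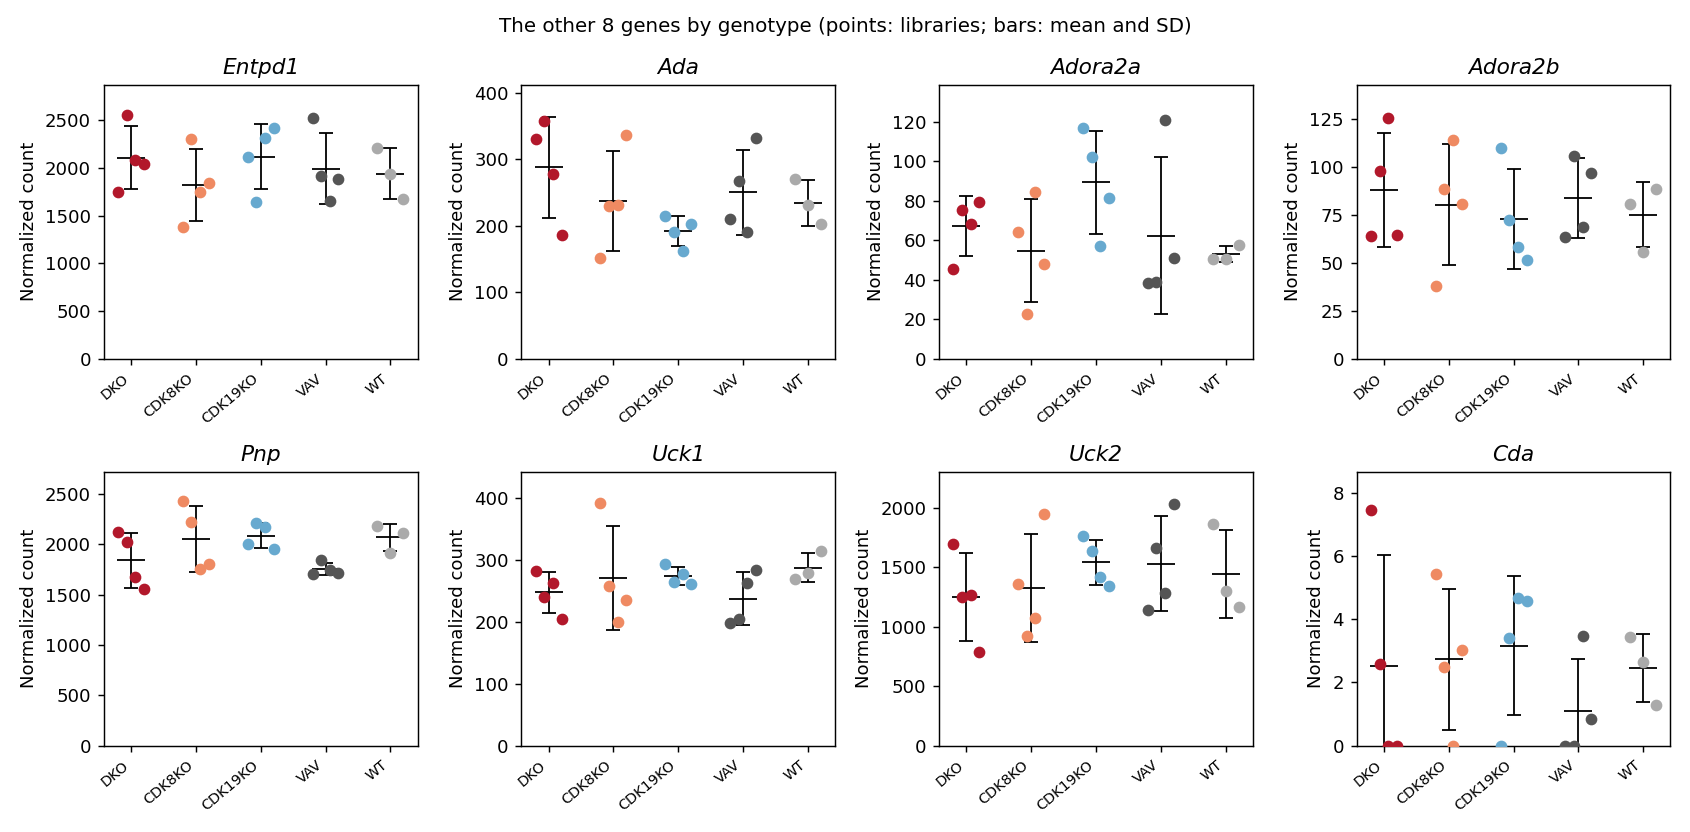
Normalized counts of the other 8 genes on linear axes from 0 in the 5 genotypes, with 1 point per library and bars for the mean and SD. In the comparisons made, only VAV against WT in Pnp has no overlap between libraries, and Cda stays at or below 7.47.

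**Figure D4:**
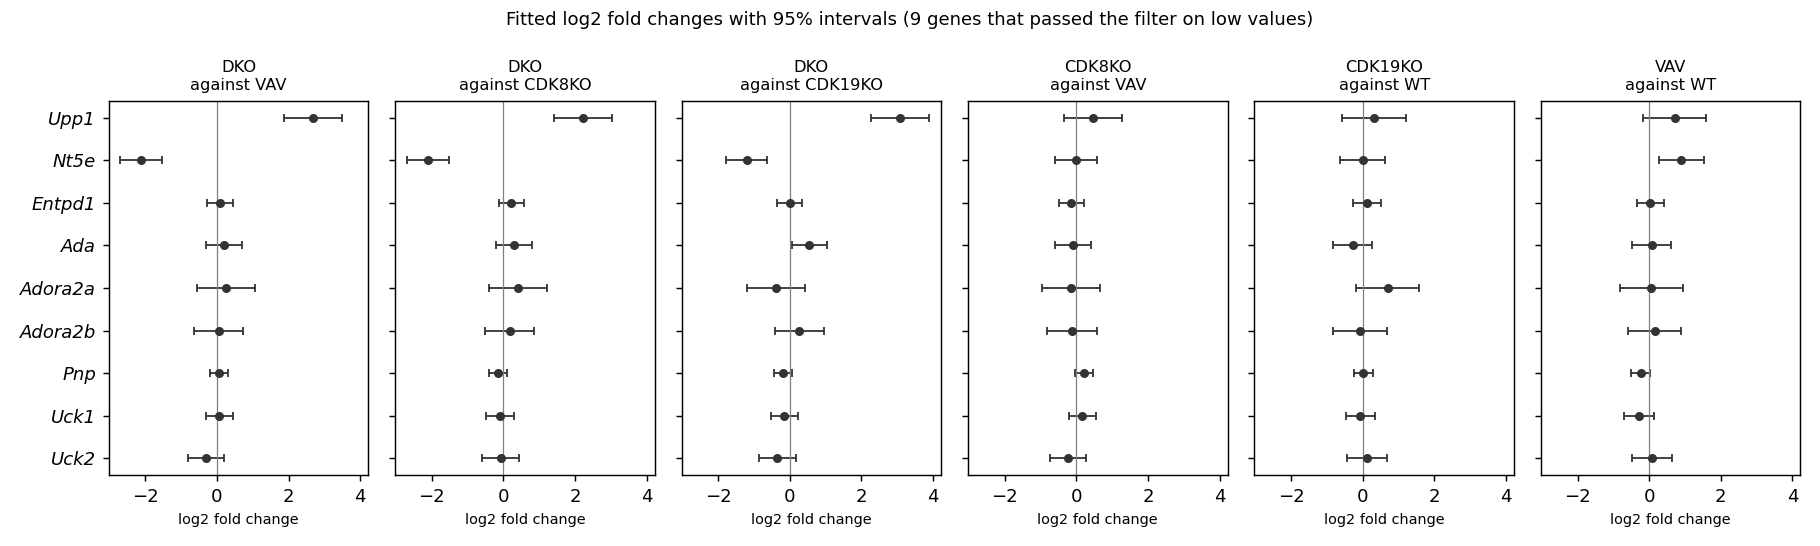
Fitted log2 differences (points) with 95% intervals (bars) for the 9 genes that passed the filter, in 6 comparisons. Upp1 and Nt5e were chosen by DKO against VAV, so their intervals in comparisons with DKO or VAV are a description without a test. The intervals of the other genes include 0 except for Ada in DKO against CDK19KO (0.05 to 1.04). They are widest for Adora2a and Adora2b among these genes.

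The wider pathway was described with 10 lists of nucleoside and nucleotide genes that hold 82 genes besides the 10. Of these 71 were tested, and 1 passed in DKO against VAV, or 1.41% against a background of 1.52%. Their median log2 difference was 0.03, and 38 of the 71 lay above 0. By edgeR 0 passed and by DESeq2 4 passed, and 14 had an unadjusted p under 0.05 in limma. Over all tested genes 3.61% passed by DESeq2 and 15.7% had an unadjusted p under 0.05. In CDK8KO against VAV and in CDK19KO against WT 0 of the 71 passed by limma, edgeR or DESeq2, with 4 and 3 at an unadjusted p under 0.05, where 8.31% and 3.07% of all tested genes had one. For the interaction 0 passed by limma and edgeR and 1 by DESeq2, with 9 at an unadjusted p under 0.05, where 0.701% of all tested genes passed by DESeq2 and 8.64% had such a p.

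The gene that passed was Adora3, an adenosine receptor found on mast cells and eosinophils among other cells. Its normalized counts were 180.9, 170.5, 376.9 and 191.8 in DKO and 73.1, 67.1, 23.5 and 94.0 in VAV. The DKO libraries all lay above those of every other genotype, where CDK8KO had 27.2 to 127, CDK19KO 45.9 to 130.5 and WT 66.5 to 104 normalized counts. In DKO against VAV, Adora3 rose by 1.90 ± 0.46 (SE) on the log2 scale (adjusted p = 0.0424, limma). The adjusted p was 0.0509 in edgeR and 0.00243 in DESeq2. It no longer passed without any 1 of DKO replicates 1, 2, 3 and 4 (log2 difference 1.99, 2.01, 1.64 and 1.96) or VAV replicates 1, 2 and 3 (2.01, 1.97 and 1.48). The adjusted p ran up to 0.177 among these.

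In DKO against VAV 1.52% of all tested genes passed by limma, 1.43% by edgeR and 3.61% by DESeq2. An unadjusted p under 0.05 in limma was seen for 15.7%. Of 9 eosinophil marker genes 5 passed, all higher in DKO than in VAV. Their summed share of reads was 0.0200 to 0.0880% in DKO, 0.00722 to 0.0139% in CDK8KO, 0.0147 to 0.0339% in CDK19KO, 0.00920 to 0.0161% in VAV and 0.0148 to 0.0180% in WT. The DKO and CDK19KO libraries overlapped, and DKO replicate 3 was the highest. All 9 eosinophil markers had a log2 difference above 0 in DKO against VAV. Of 8 basophil and mast cell markers 3 passed, all higher in DKO than in VAV. Their summed share was 0.0478 to 0.0605% in DKO and 0.0320 to 0.0491% in VAV. WT libraries, at 0.0435 to 0.0531%, and CDK8KO libraries, at 0.0279 to 0.0495%, also overlapped DKO for this sum. Only CDK19KO libraries, at 0.0396 to 0.0421%, all lay below DKO. Of 11 neutrophil markers 2 passed, both lower in DKO than in VAV. Their list had a summed share of 2.92 to 4.04% in DKO and 3.43 to 5.44% in VAV. WT libraries held 3.15 to 3.98%, CDK19KO libraries 2.78 to 3.68% and CDK8KO libraries 2.90 to 5.22%. The neutrophil share of DKO thus overlapped that of every other genotype. None of these 3 lists had a marker at 0 in any library. Of 5 tested plasma cell markers 1 passed, higher in DKO than in VAV. The summed share of the list of 6 was 0.0423 to 0.0502% in DKO and 0.0307 to 0.0418% in VAV, without overlap. At most 1 marker was at 0 in a VAV library. For this sum DKO overlapped CDK19KO libraries, at 0.0399 to 0.0443%. WT libraries, at 0.0343 to 0.0363%, and CDK8KO libraries, at 0.0253 to 0.0398%, lay below DKO. All 7 megakaryocyte and platelet markers had a log2 difference below 0 in DKO against VAV. Of these 0 passed by limma or edgeR and 3 by DESeq2, with 4 at an unadjusted p under 0.05, and their summed share was 0.00971 to 0.0240% in DKO and 0.0146 to 0.120% in VAV. Among 8 T cell markers 1 passed by limma, 1 by edgeR and 3 by DESeq2, with 4 at an unadjusted p under 0.05. Among 10 monocyte and macrophage markers 1 passed by each tool. Among 6 natural killer markers 1 passed by limma, 0 by edgeR and 1 by DESeq2. The summed shares of these lists overlapped between DKO and VAV. In the B cell, erythroid, stroma and muscle lists 0 passed by any tool. The part of these marker genes in the Upp1, Nt5e and Adora3 values was not tested, and in whole marrow a change in the number of cells of a type and in RNA per cell cannot be told apart.

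Nucleotide receptors, which sense ATP, ADP and UDP sugars outside the cell, had 10 of 11 tested genes above 0 in DKO against VAV with a median log2 difference of 0.36. None passed in limma or edgeR, 4 had an unadjusted p under 0.05 and 2 passed in DESeq2, beside 15.7% and 3.61% of all tested genes. These 2 were named after their values were seen. P2rx4, an ATP-gated channel, averaged 543 in DKO and 348 in VAV normalized counts, a log2 difference of 0.64 ± 0.16 (SE, adjusted p = 0.0523, limma). P2ry14, a receptor for UDP-glucose, averaged 561 in DKO and 219 in VAV normalized counts, a log2 difference of 1.18 ± 0.35 (SE, adjusted p = 0.126, limma).

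Genes of purine synthesis from small precursors lay the other way, with 2 of 11 above 0 and a median log2 difference of -0.19 in DKO against VAV. None passed in limma, edgeR or DESeq2, and 3 had an unadjusted p under 0.05, as did 15.7% of all tested genes. Adora3 was the only adenosine receptor tested besides the 10. Among the remaining lists the medians of the tested genes besides the 10 ran from -0.23 for 3 genes of pyrimidine breakdown to 0.16 for 6 nucleoside transporters. The plot of the lists shows the spread around 0 in each.

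**Figure D5:**
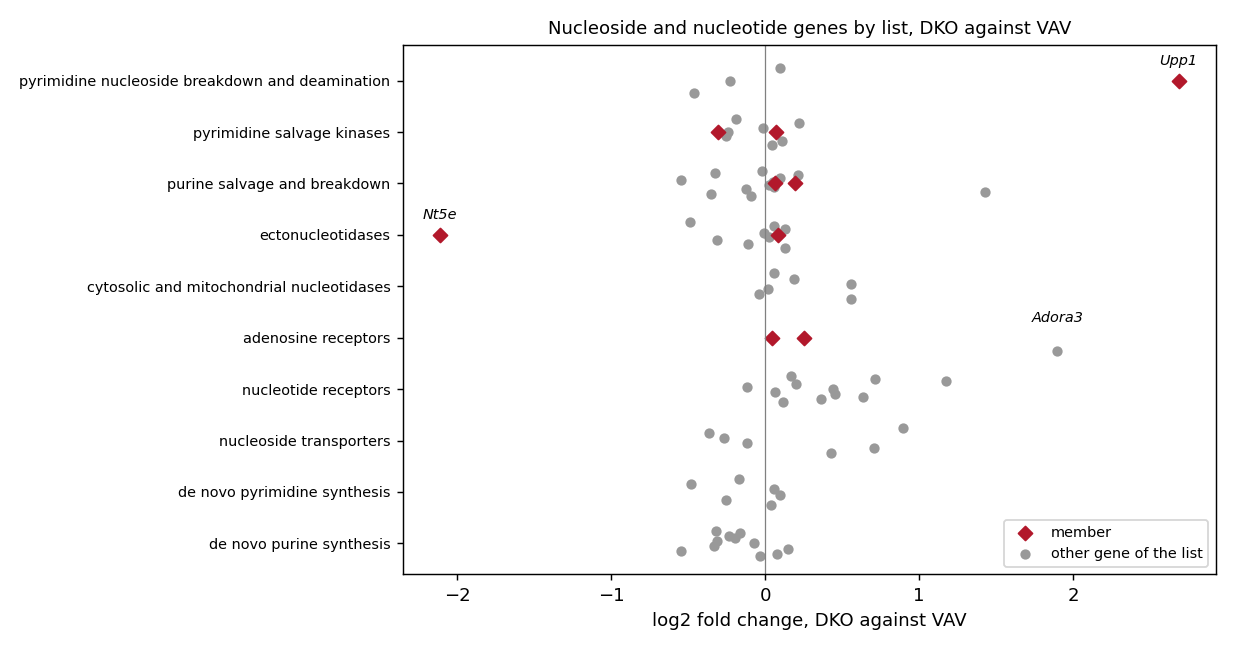
Log2 differences of DKO from VAV for each tested gene of the 10 pathway lists, 1 row per list, with the 9 tested of the 10 genes as red diamonds and the others as grey circles. Upp1 at 2.69, Adora3 at 1.90 and Nt5e at -2.11 stand furthest out, and the next is Ampd1 at 1.43 with an SE of 1.43.

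DKO marrow compared with CDK8KO gave 2 of 71 genes by limma, 2 by edgeR and 9 by DESeq2, with 19 at an unadjusted p under 0.05. Of all tested genes 1.57% passed by edgeR and 5.09% by DESeq2, and 16.1% had that unadjusted p. Compared with CDK19KO it gave 2 by limma, 1 by edgeR and 8 by DESeq2, with 11 at an unadjusted p under 0.05. The shares of all tested genes there were 1.78% by edgeR, 4.3% by DESeq2 and 15.6% at that unadjusted p. Adora3 passed in DESeq2 in both (adjusted p = 0.00776 and 0.0209), but not in limma (0.0534 and 0.101). In DKO against CDK8KO, where the background was 1.7%, Slc28a2, a sodium-coupled nucleoside carrier for purines and uridine, rose by 0.68 ± 0.14 (SE) on the log2 scale (adjusted p = 0.0168, limma). It averaged 1890.3 ± 284 normalized counts in DKO and 1178 ± 181 in CDK8KO (SD), without overlap. It no longer passed without DKO replicate 2 (0.61), DKO replicate 4 (0.65) or CDK8KO replicate 1 (0.58). Paics, an enzyme of purine synthesis, fell by 0.46 ± 0.10 (SE) there (adjusted p = 0.0261, limma), with 4568 ± 196 normalized counts in DKO and 6298 ± 514 in CDK8KO (SD). It no longer passed without DKO replicate 2 (-0.46), 3 (-0.44) or 4 (-0.45), or CDK8KO replicate 1 (-0.41). Against VAV, DKO differed by 0.43 ± 0.14 for Slc28a2 and -0.24 ± 0.10 for Paics (SE). Neither passed (adjusted p = 0.151 and 0.269, limma). CDK8KO itself differed from VAV by -0.25 ± 0.14 for Slc28a2 and 0.22 ± 0.10 for Paics (SE). Neither passed there (adjusted p = 0.597 and 0.586, limma).

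In DKO against CDK19KO, where the background was 2%, Slc28a2 again passed, with 1263 ± 34.5 normalized counts in CDK19KO (SD) and a log2 difference of 0.57 ± 0.14 (SE, adjusted p = 0.0401, limma). Cmpk2, a mitochondrial nucleotide kinase that is also induced by interferon, differed by 0.54 ± 0.14 (SE, adjusted p = 0.0493, limma), with 2372 ± 256 normalized counts in DKO and 1634 ± 181 in CDK19KO (SD). The adjusted p of Cmpk2 was 0.0599 in edgeR and 0.0115 in DESeq2. Both comparisons use the same DKO libraries. Slc28a2 no longer passed without any 1 of DKO replicates 1, 2 and 4 or of the 4 CDK19KO replicates, with log2 differences of 0.50 to 0.58. Cmpk2 no longer passed without any 1 of the 4 DKO replicates or of CDK19KO replicates 2, 3 and 4, with log2 differences of 0.47 to 0.59.

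Cmpk2 also passed in VAV against WT, where 0.093% of tested genes passed, with 2217 ± 448 normalized counts in VAV and 1219 ± 147 in WT (SD). The log2 difference was 0.85 ± 0.15 (SE, adjusted p = 0.0321, limma). It no longer passed without VAV replicate 1 (0.73) or 2 (0.82), or WT replicate 1 (0.76), 2 (0.94) or 3 (0.84). In DKO against WT Cmpk2 differed by 0.96 ± 0.15 (SE, adjusted p = 0.00137, limma). It was the only gene of the 71 that passed there in limma or edgeR, where 2.1% of all tested genes passed by limma. By DESeq2 6 of the 71 passed, Adora3 among them (adjusted p = 0.0463). The shares of all tested genes by edgeR and DESeq2 were not computed for this comparison, so nothing is read from these counts. By DESeq2 the share was 3.61% in DKO against VAV, 5.09% against CDK8KO and 4.3% against CDK19KO. In DKO against WT an unadjusted p under 0.05 in limma was seen for 13 of the 71 and for 2091 of the 13976 tested genes. DKO, CDK8KO and VAV, the genotypes with Vav-iCre, averaged 2372 ± 256, 1977 ± 248 and 2217 ± 448 normalized counts of Cmpk2 (SD), above the 1634 ± 181 of CDK19KO and the 1219 ± 147 of WT.

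Genes were ranked by how closely their profile over the 19 libraries followed that of Upp1 or Nt5e, as the root-mean-square difference of centred log2 values. For Upp1 the 5 nearest were Stfa1 (0.56), Chil5 (0.62), Ugt8a (0.64), Stfa2 (0.67) and Stfa3 (0.68), against a median of 1.35 over all tested genes. Stfa1, Stfa2 and Stfa3 are members of the stefin A family of cysteine protease inhibitors, whose close copies can share reads, so their split is uncertain. Stfa1 averaged 749 ± 271 normalized counts in DKO, 189 ± 67.5 in CDK8KO, 103 ± 15.1 in CDK19KO, 139 ± 48.8 in VAV and 85.0 ± 13.2 in WT (SD). Chil5, a chitinase-like protein, averaged 474 ± 65.1 in DKO and 165 ± 17.9 normalized counts in VAV (SD).

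For Nt5e the 5 nearest were Has2 (0.44), Hcar2 (0.47), Mc5r (0.50), Egr1 (0.54) and Ncr1 (0.54), against a median of 0.92 over all tested genes. Has2, a hyaluronan synthase, averaged 28.7 ± 9.41 normalized counts in DKO, 87.2 ± 27.6 in CDK8KO, 40.5 ± 5.43 in CDK19KO, 70.9 ± 12.3 in VAV and 38.1 ± 2.09 in WT (SD). Egr1, an immediate early transcription factor, averaged 78.2 ± 29.8 in DKO and 209 ± 48.1 normalized counts in VAV (SD), and 214 ± 56.5 in WT. Ncr1, a receptor of natural killer cells, averaged 45.3 ± 20.0 in DKO and 105 ± 30.1 normalized counts in VAV (SD). The 6 natural killer markers include Ncr1. Their summed share was 0.00878 to 0.0114% in DKO and 0.00648 to 0.00922% in VAV, which overlapped, with medians of 0.0101% and 0.00732%. Ncr1 was thus lower on average in DKO than in VAV while the median of that sum was higher. Likeness of profile is a description and carries no test.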

How the data were processed

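Polyadenylated RNA of bone marrow was extracted with Trizol, prepared with a Kapa mRNA kit and sequenced from both ends (NovaSeq X), per the labels' protocols. Salmon 1.4.0, DESeq2 and mm10 are named in the submitters' processing notes, without their roles. The authors deposited normalized counts, a signal in which each library's counts are divided by its size factor. The annotation release and any filter are not given in the sources used here.

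Whole reads were recovered for 100% of the values, within a tolerance of 0.001 read, and all 19 libraries were used (lowest chi-square per degree of freedom between libraries of a genotype 15.3, so no duplicates). Values were taken as log2(normalized count + 1). The 13976 genes averaging 10 or more normalized counts were fitted with limma 3.58.1 in R 4.3.3 (eBayes with trend) over all 5 genotypes, with Benjamini-Hochberg adjustment over all tested genes and a threshold of 0.05. The method was tested on simulated data. Alternatives were edgeR 4.0.16 and DESeq2 1.42.0 on the recovered reads, another scaling (TMM), pseudocounts of 0.5 and 5, no filter, other control genotypes, only the compared genotypes, a replicate block and left-out libraries. Values after ± are named as SD or SE.

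The 10 genes and all gene lists were chosen with earlier results of these data known. Named genes were these 10, Cdk8 and Cdk19, genes of the pathway lists that passed, and the 5 nearest profiles of Upp1 and of Nt5e, leaving out predicted genes, antibody and T cell receptor segments. P2rx4, P2ry14 and Ampd1 were named after their values were seen, and Pnp2 and Gm49342 for their likeness to or shared bases with Pnp. Coordinates come from GENCODE vM21 (GRCm38/mm10), in which 34372 of the 34432 gene IDs were found, and promoter windows from RefSeq GRCm38.p6.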

Additional observations from a re-analysis of the deposited data

Results flagged for a closer look

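Adora2a had 121 normalized counts in VAV replicate 3, against 51.2, 38.6 and 38.3 in the other VAV libraries. The gap to the nearest library was 0.845 of the whole range of the genotype. It was the only value that stood apart in this way among 40 sets of 4 libraries examined, 1 set for each gene and genotype other than WT. VAV replicate 3 was also 1 of the 2 libraries rich in erythroid transcripts (3.12% of reads), and the part of that in the Adora2a value was not tested. Without it Adora2a differed by 0.62 on the log2 scale between DKO and VAV, against 0.25 with it, and by -0.31 between VAV and WT, against 0.06 with it.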

How the results depend on the processing

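The Upp1 and Nt5e differences of DKO from VAV kept their direction under every alternative run. Leaving out 1 library gave log2 differences of 2.53 to 2.81 for Upp1 and -2.29 to -1.80 for Nt5e. With WT in place of VAV as control they were 3.39 for Upp1 and -1.22 for Nt5e. Of 938 alternative values of the 7 other tested genes, 0 passed the threshold. Deviations of same-numbered libraries from their genotype means had a median correlation of 0.00827 over 36 pairs, 6 of them over 0.1. For differently numbered libraries of different genotypes the median was 0.00189 over 108 pairs, 23 of them over 0.1. The labels do not say what the numbers mean, so whether they pair libraries is unknown. A replicate block gave 2.69 for Upp1 and -2.11 for Nt5e, and an adjusted p of 0.0789 for Adora3 in DKO against VAV. The count of all genes that passed in DKO against VAV was 213, and it was 504 by DESeq2, 99 with only the compared genotypes, 102 without the 2 libraries rich in muscle transcripts and 385 without the 2 rich in erythroid transcripts; the cause was not tested. In VAV against WT it was 13, and it was 320 by DESeq2 and 1060 without the erythroid-rich libraries. In DKO against CDK8KO it was 238, and it was 711 by DESeq2, 92 without the muscle-rich libraries and 31 with only the compared genotypes. In DKO against CDK19KO it was 279, and it was 601 by DESeq2, 97 without the muscle-rich libraries, 880 without the erythroid-rich libraries and 968 with only the compared genotypes. For the interaction it was 21, 98 by DESeq2, 14 with the replicate block and 11 without the muscle-rich libraries, and in CDK19KO against WT it was 3, from 1 to 15 over the same settings. Under the alternatives run without leaving out single libraries, 3 to 5 of the 5 nearest profiles were shared. The calls of pathway genes were lost under 13 alternatives for Adora3 in DKO against VAV, 12 for Cmpk2 and 10 for Slc28a2 in DKO against CDK19KO, 5 for Slc28a2 and 7 for Paics in DKO against CDK8KO, and 7 for Cmpk2 in VAV against WT. Depth limits Cda.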
